A study of Rattus norvegicus with 19 samples.

Results

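The 20 rat HOX genes described here were chosen as every non-control probe of the array whose RefSeq accession belongs to a gene named Hoxa, Hoxb, Hoxc or Hoxd with a number. They were read by 22 probes, of 15168 genes matched by accession and 30367 probes on the array. Hoxc5 is described by both of its probes. The gene table lists 39 HOX genes in the rat, and the other 19 were not analysed here. The genes matched were 5 of cluster A, 6 of cluster B, 3 of cluster C and 6 of cluster D.

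HOX proteins are transcription factors that bind DNA through a homeodomain. Their genes lie in 4 clusters, A to D, and the paralogue number marks a gene's place along its cluster: low numbers act in anterior parts of the embryo and high numbers in posterior parts. Adult tissues keep a HOX pattern that reflects their place in the body, in fibroblasts and fat cells as well as in epithelium. In the mouse, the paralogue group 9 genes of clusters A, B and D are needed together for the mammary gland to develop and make milk.

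RNA of 13 mammary carcinomas and 6 normal mammary glands of female rats was hybridised to single-colour arrays, 1 array per sample. All animals were F1 hybrids between Sprague-Dawley and Copenhagen rats. The series names its tumours as radiation-induced. Rats were either left untreated or given 4 Gy of whole-body 137Cs gamma rays at 7 weeks of age, at 0.5 Gy per minute, and the labels do not tell which normal glands came from irradiated rats, nor the ages at which tissue was taken. The comparison is therefore carcinoma against gland and cannot be told apart from any difference in age or irradiation. Nothing in the labels says whether any samples share an animal.

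Values are log2 intensities minus the log2 of the array's 75th percentile, so that 0 is the 75th percentile of that array. A level is comparable between arrays for 1 probe and not between probes. The scanner software flags each spot whose signal is well above background, and a probe was counted as such where the share of its spots with the flag was 0.5 or more. Arrays lay on 3 slides. Slide 1 held carcinomas 1, 2, 3 and 5 with normal glands 1, 2 and 3, and slide 2, scanned on another day, held carcinomas 4, 6, 7 and 9 with normal glands 4 and 5. Slide 3 held carcinomas 8 and 10 to 13 with normal gland 6. Carcinomas 11, 12 and 13 and normal gland 6 carry letter codes in their descriptions and the other samples number codes.

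Carcinoma arrays were brighter. Their 75th percentile was 484.9 to 1428 intensity units (median 1128), against 295.5 to 673 (median 460.7) on normal gland arrays. Spots well above background made up 62.3 to 84.2% (median 80.4%) on carcinoma arrays and 65.5 to 77.2% (median 66.7%) on normal gland arrays. The lowest scaled value that was still well above background reached further down on most carcinoma arrays, at -6.81 to -4.61 (median -6.31), than on normal gland arrays, at -5.57 to -4.55 (median -4.89). Values of dim probes near these limits follow the array as well as the sample. A fit with brightness as a covariate was run, but brightness went largely with group, and the standard errors of the HOX genes grew. That fit cannot separate brightness from group. The part of array brightness in the differences of dim HOX genes was not tested otherwise.

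Marker lists set the tissue labels beside the data. The mean scaled level of 8 luminal epithelial genes was 1.20 to 3.94 in carcinomas and 1.60 to 2.87 in normal glands. That of the adipocyte list, tested through 7 of its 8 genes, was -5.68 to -3.46 in carcinomas and 0.85 to 2.48 in normal glands, and 7 of 7 fell. All 5 endothelial and all 4 T cell genes fell, and 3 of 5 macrophage genes and 2 of 4 Schwann cell genes did. Of 7 fibroblast genes, Pdgfra and Pi16 fell, and the list's mean was -2.08 to 3.01 in carcinomas and 1.60 to 3.22 in normal glands. Of 8 luminal genes, Cdh1 and Gata3 rose. No gene of the myoepithelial list (5 tested) or of the skeletal muscle list (4 tested) passed, and Krt15, the only epidermal gene tested, rose. Over all genes tested, 13.2% fell and 9.73% rose, at the threshold given further on. Each sample is a bulk extract, in which fewer cells of a type and less RNA per cell cannot be told apart.

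On all 6 normal gland arrays, 6 genes were well above background: Hoxb4 and Hoxd4 of the anterior part (paralogues 1 to 4), Hoxa7 and Hoxb7 of the central part (5 to 8), and Hoxd9 and Hoxd10 of the posterior part (9 to 13). On all 13 carcinoma arrays, 3 were: Hoxd4, Hoxb7 and Hoxd9. Hoxa7 and Hoxb4 missed 1 carcinoma array each and Hoxd10 missed 2. None of the 3 genes of cluster C was well above background on every array of either group. Per array, 5 to 16 HOX genes (median 12) were well above background in carcinomas, against 6 to 13 (median 7.5) in normal glands. The share of all spots well above background was also higher on carcinoma arrays, with a median of 80.35% against 66.74%. The counts are therefore not read as particular to HOX genes.

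Several genes were seen on few arrays. Hoxb9 was well above background on no array, with intensities of 2.71 to 6.68 units in carcinomas and 3.07 to 4.78 in normal glands. Hoxb13, the most posterior gene of its cluster, was so on 1 carcinoma array (carcinoma 12) and 0 normal gland arrays. Hoxa2 was so on 3 carcinoma arrays and 0 normal gland arrays. Hoxa11, which patterns limb and uterus, was so on 3 carcinoma arrays, with scaled values of -4.25 in carcinoma 8 and -4.35 in carcinoma 2, and on 1 normal gland array. These genes did not pass the filter of 6 arrays and were not tested. For Hoxa2, Hoxb13, Hoxd1 and Hoxd13, each not well above background on any array of one group, the other group's mean lay below the lowest measurable level, and no fold is given. Of these, Hoxd1 and Hoxd13 were tested and are given further on.

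**Figure D1:**
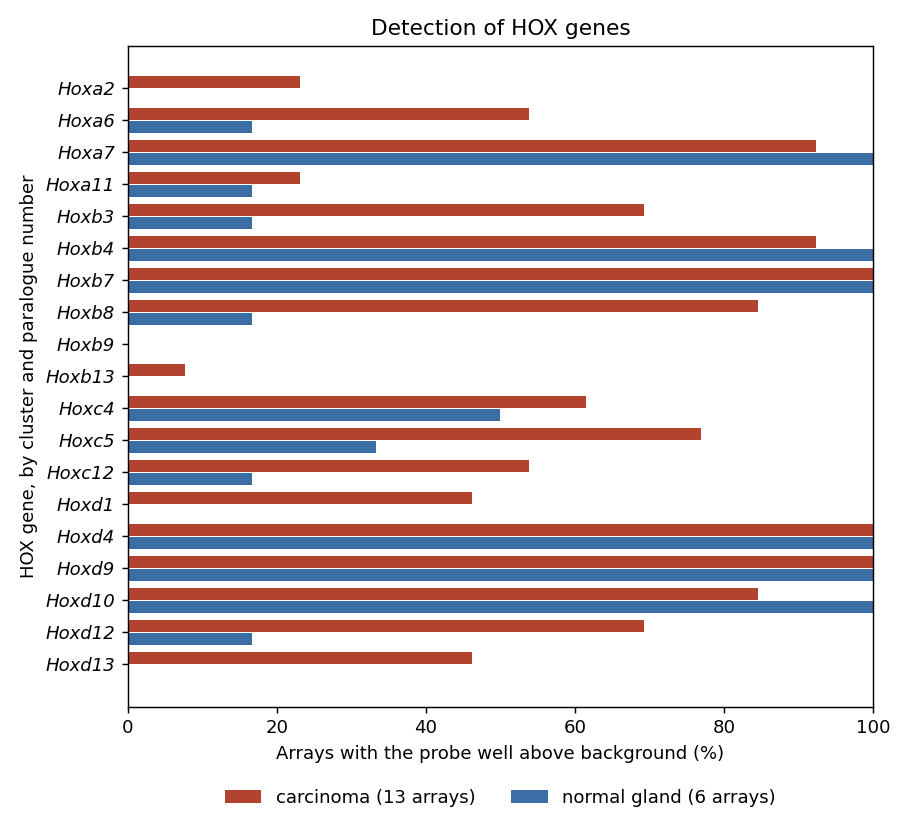
Share of arrays (horizontal axis, %) on which each of 19 HOX genes was well above background, with carcinomas (13 arrays) drawn above normal glands (6 arrays) and genes ordered by cluster and paralogue number. Bars reach 100% in normal glands for 6 genes and in carcinomas for 3, and Hoxb9 has no bar in either group.

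Among the 15 genes tested, 4 fell in carcinomas, which is 26.7%, and none rose. Over all 12789 genes tested, 13.2% fell and 9.73% rose, 23% in either direction. The 4 were Hoxa7, Hoxb7, Hoxd9 and Hoxd10, which lie in the central and posterior parts of clusters A, B and D. None of the 5 anterior genes tested passed, 2 of 5 central genes fell, and 2 of 5 posterior genes fell. A dependence on position was not tested. The anterior gene Hoxc4 (-1.04 ± 0.50), which did not pass, lay close to the posterior gene Hoxd10 (-1.22 ± 0.42), which did. The difference was negative for 10 of the 15 genes and positive for 5, with a median of -0.56 against 0.01 over all genes tested. At an unadjusted p under 0.05 there were 5 genes, 33.3%, the fifth being Hoxd4, and none of them was higher in carcinomas. Over all genes tested the unadjusted share was 35.5%. The test was limma's, and a gene passed at an adjusted p under 0.05 (Benjamini-Hochberg, all 12789 genes).

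**Figure D2:**
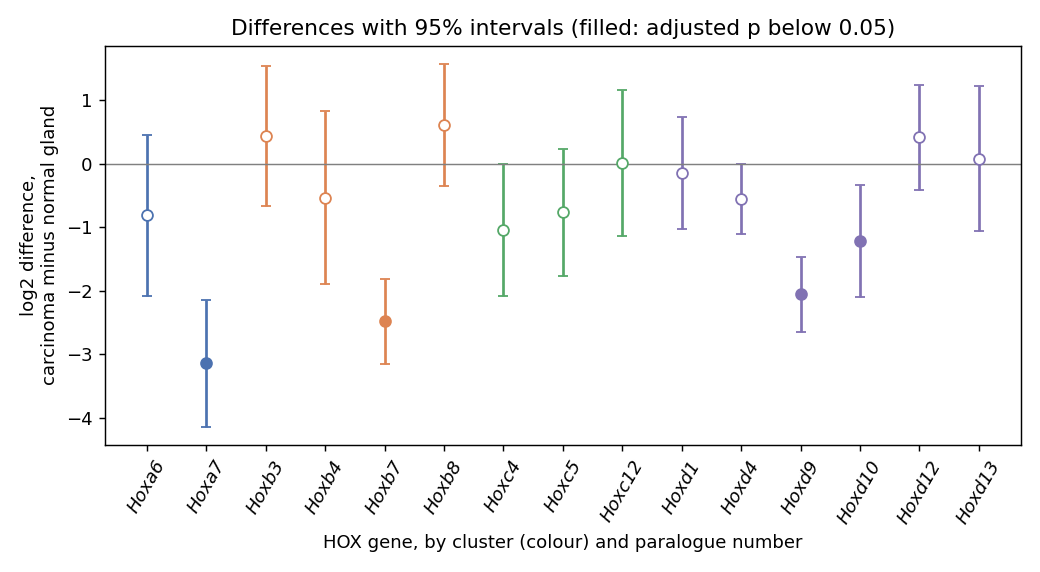
Difference in log2 intensity, carcinoma minus normal gland (vertical axis), for the 15 HOX genes tested, in the order of cluster (colour) and paralogue number; points are limma estimates and bars their 95% intervals, from 13 carcinomas and 6 normal glands. The 4 filled points, Hoxa7, Hoxb7, Hoxd9 and Hoxd10, have an adjusted p below 0.05, and their intervals lie below 0.

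Promoters of 11 of the 20 genes were in the RefSeq promoter table (assembly GRCr8), each with 250 bases before and 50 after the gene's start. The windows of Hoxa7, Hoxd9 and Hoxd10, which fell, are printed here with that of Hoxd4, a gene of the same cluster as Hoxd9 that did not pass. The strand is given after the position, and capitals mark the E-box CACGTG, a palindrome bound by basic helix-loop-helix factors.
Hoxa7, chr4:82648192-82648491, minus strand: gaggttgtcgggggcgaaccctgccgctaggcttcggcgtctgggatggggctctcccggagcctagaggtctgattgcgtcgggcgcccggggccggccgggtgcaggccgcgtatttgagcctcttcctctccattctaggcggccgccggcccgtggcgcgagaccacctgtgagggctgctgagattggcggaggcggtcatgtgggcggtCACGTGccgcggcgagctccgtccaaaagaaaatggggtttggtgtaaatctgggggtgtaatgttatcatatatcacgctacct
Hoxd9, chr3:80007756-80008055, plus strand: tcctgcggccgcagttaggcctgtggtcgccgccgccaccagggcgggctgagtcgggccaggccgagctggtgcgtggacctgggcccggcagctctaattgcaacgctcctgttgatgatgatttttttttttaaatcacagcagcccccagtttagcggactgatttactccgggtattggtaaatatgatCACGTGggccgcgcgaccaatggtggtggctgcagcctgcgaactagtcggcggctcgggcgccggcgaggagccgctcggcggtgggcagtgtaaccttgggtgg
Hoxd10, chr3:80001697-80001996, plus strand: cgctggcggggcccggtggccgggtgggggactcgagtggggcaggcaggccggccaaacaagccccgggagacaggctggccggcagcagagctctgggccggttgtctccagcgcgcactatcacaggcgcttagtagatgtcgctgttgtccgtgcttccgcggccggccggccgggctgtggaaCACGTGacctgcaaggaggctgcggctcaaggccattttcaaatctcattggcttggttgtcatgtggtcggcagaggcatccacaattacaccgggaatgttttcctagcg
Hoxd4, chr3:80021636-80021935, plus strand: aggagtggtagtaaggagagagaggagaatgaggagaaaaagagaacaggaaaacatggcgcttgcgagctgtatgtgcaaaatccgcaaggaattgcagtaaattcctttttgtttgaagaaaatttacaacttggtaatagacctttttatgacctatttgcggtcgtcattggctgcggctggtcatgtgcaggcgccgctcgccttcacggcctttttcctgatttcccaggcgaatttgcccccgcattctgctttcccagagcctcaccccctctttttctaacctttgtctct

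The E-box began at base 216 of the window in Hoxa7, 195 in Hoxd9 and 189 in Hoxd10, and the Hoxd4 window held none. It was also in the window of Hoxd1, which did not pass, so 4 of the 11 HOX windows held it. The motif was picked after these sequences had been read. Over all 33469 promoters, 6.42% held it, and 11.7% of the 6009 promoters with at least 24 CpG did. The 3 windows with capitals held 29, 27 and 24 CpG for Hoxa7, Hoxd9 and Hoxd10, and the Hoxd4 window 12, against a median of 7 over all promoters.

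Of 3 other motifs searched on both strands, CATGTG was in 5 HOX windows (14.0% of all promoters), and its letters cannot overlap those of CACGTG. TGATNNAT, which PBX and HOX proteins can bind together, was in 2, those of Hoxa2 and Hoxa7 (9.1% of all promoters), and it did not overlap the E-box of Hoxa7. A direct repeat of AGGTCA with 5 bases between, bound by retinoic acid receptors, was in 0 (0.00896% of all promoters). These matches describe letters in the windows.

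Hoxa7, a central gene of cluster A, had the largest difference of the 15 in the fit of all 19 arrays with group alone. Its scaled level was -6.23 to -2.54 (median -3.37) in carcinomas and -1.15 to -0.20 (median -0.36) in normal glands. All 13 carcinomas lay below all 6 normal glands, with carcinomas 9 (-6.23) and 11 (-6.18) far below the others, the highest of which was carcinoma 10. The difference was -3.14 ± 0.48 (SE), 8.84-fold lower, with an adjusted p of 1.4e-04. With normexp background correction it was -2.34, where the median of all genes was -0.37. With array brightness as a covariate, which goes largely with group, it was -2.45 ± 0.83 and did not pass (adjusted p = 0.167). In that fit Hoxb7 (-2.65) and Hoxd9 (-2.49) were further below 0. Its probe stood well above background everywhere but on the array of carcinoma 9.

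Hoxb7, the paralogue of Hoxa7 in cluster B, had scaled levels of -4.73 to -1.69 (median -2.68) in carcinomas and -1.38 to 0.48 (median -0.26) in normal glands. Again the groups did not overlap, the nearest carcinoma being carcinoma 1 and the lowest carcinoma 9. The difference was -2.48 ± 0.32, 5.58-fold lower, with an adjusted p of 2.1e-05. All 19 arrays measured it well above background.

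Hoxd9, of the paralogue group needed for mammary development in the mouse, ranged from -2.54 to -0.26 (median -1.39) in carcinomas and from -0.12 to 1.45 (median 0.61) in normal glands. The groups did not overlap, although the gap between carcinoma 10 (-0.26) and normal gland 4 (-0.12) was small. The difference was -2.06 ± 0.28, 4.17-fold lower, with an adjusted p of 4.3e-05. It was well above background on all 19 arrays.

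Groups did not overlap for 3 of the 15 genes, 20.0%, all lower in carcinomas, beside 1.93% lower and 0.54% higher without overlap over all genes tested. Within slides the 3 differences kept their direction. They were -3.12 for Hoxa7, -2.32 for Hoxb7 and -2.10 for Hoxd9 within slide 2, where no HOX gene passed the adjustment and 2.44% of all genes tested did. Within slide 3, with 1 normal gland, they were -3.02, -3.31 and -2.73, and again no HOX gene passed, as against 0.243% of all genes tested. Within slide 1 all 3 passed, beside 5.37% of all genes tested.

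Hoxd10, beside Hoxd9 in the cluster, gave a smaller difference that depended on single samples. It was -6.00 to -3.40 (median -4.36) in carcinomas and -4.70 to -1.66 (median -3.49) in normal glands, and the groups overlapped, with 4 of 13 carcinomas below all normal glands. The highest value, -1.66, was that of normal gland 6. The difference was -1.22 ± 0.42, 2.33-fold lower, with an adjusted p of 0.042. It no longer passed without normal gland 2, 3, 5 or 6 or without carcinoma 4, 7, 8, 9 or 10, and without normal gland 6 it was -0.87 (adjusted p = 0.123, the highest of the 19 values with 1 sample left out). Its probe was well above background on 11 carcinoma arrays and 6 normal gland arrays, and carcinomas 7 and 9 were the 2 that missed.

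**Figure D3:**
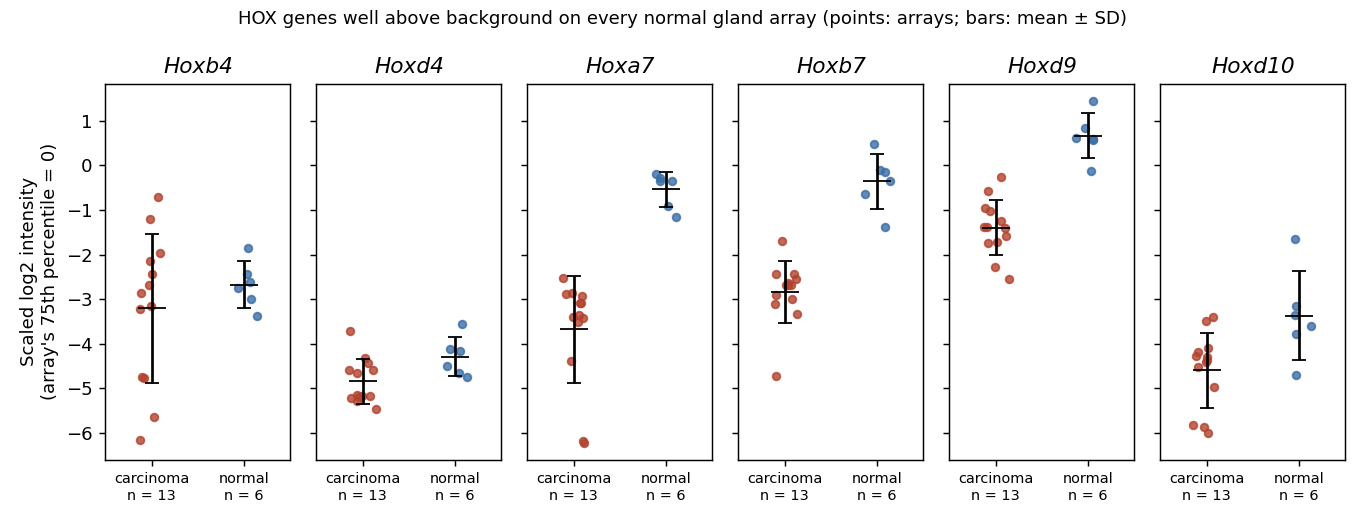
Scaled log2 intensity (vertical axis, 0 is the array's 75th percentile) of the 6 HOX genes well above background on every normal gland array; each point is an array, with 13 carcinomas left of 6 normal glands in each panel, and bars show mean and SD. Carcinoma and normal gland points do not overlap for Hoxa7, Hoxb7 and Hoxd9, and overlap for Hoxb4, Hoxd4 and Hoxd10.

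Normal glands differed among themselves in the genes that fell. Normal gland 4 had the lowest level of Hoxa7 (-1.15), Hoxb7 (-1.38), Hoxd9 (-0.12) and Hoxd10 (-4.70) of the 6. It also had the lowest mean of the adipocyte list (0.85) and of the endothelial list (-1.47) and the highest of the luminal list (2.87). Its fibroblast mean (2.48) was the second highest. Normal gland 6 had the highest Hoxb7 (0.48), Hoxd9 (1.45) and Hoxd10 (-1.66), while its Hoxa7 (-0.90) was the second lowest, and it had the highest adipocyte mean (2.48) and the lowest luminal mean (1.60). The fibroblast (1.60) and macrophage (-0.61) means of normal gland 6 were the lowest of the 6, and its endothelial mean (0.26) the highest. The part of the makeup of the samples in the HOX differences was not tested.

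None of the anterior paralogue 4 genes Hoxb4, Hoxd4 and Hoxc4 passed, the last being given further on with cluster C. Hoxb4 was -6.16 to -0.70 (median -2.86) in carcinomas and -3.38 to -1.85 (median -2.68) in normal glands. Of the 13 carcinomas, 4 lay below all normal glands (2, 4, 5 and 8) and 2 above (9 and 13), the widest range across carcinomas of any HOX gene tested, 5.46. The difference of -0.54 ± 0.65 did not pass (adjusted p = 0.60), and its 95% interval was -1.89 to 0.82. Carcinoma 9, lowest of all carcinomas in Hoxa7, Hoxb7 and Hoxd9, had the highest Hoxb4, at -0.70. The variation between carcinomas was not tested against that between normal glands.

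Hoxd4 was -5.48 to -3.72 (median -5.16) in carcinomas and -4.75 to -3.56 (median -4.34) in normal glands, and 7 of 13 carcinomas lay below all normal glands. The difference was -0.56 ± 0.26 and did not pass (adjusted p = 0.13), with a 95% interval of -1.10 to -0.01. Hoxb3, the neighbour of Hoxb4, was -7.54 to -3.83 (median -5.06) in carcinomas and -6.57 to -5.00 (median -5.90) in normal glands, with a difference of 0.43 ± 0.53 that did not pass. Hoxd1, the most anterior gene of cluster D, was not well above background on any normal gland array and was on 6 carcinoma arrays. Its values were -7.61 to -4.65 (median -6.27) in carcinomas and -6.68 to -5.49 (median -6.09) in normal glands, and the difference of -0.15 ± 0.43 did not pass.

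Within each array the difference between 2 probes of 1 cluster was taken, where the scaling of the array cancels. Only its change between groups is read, since the level of 1 probe is not comparable with that of another. The 3 pairs were chosen after the values had been seen, so no test is given. Hoxd9 minus Hoxd4 was 2.05 to 4.90 (median 3.49) in carcinomas and 4.54 to 5.36 (median 4.90) in normal glands, and only carcinoma 3 lay within the range of the normal glands. The mean differed by -1.50 ± 0.25 (SE), carcinoma minus normal gland, and by -1.10, -1.80 and -1.53 within slides 1, 2 and 3. With normexp it was -1.01. Hoxd4 lay close to the lowest measurable level on some normal gland arrays, so that array brightness need not cancel in this pair.

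Hoxb7 minus Hoxb4 was -4.03 to 3.47 (median 0.41) in carcinomas and 1.21 to 3.23 (median 2.49) in normal glands, with wide overlap. The mean differed by -1.95 ± 0.67, and by -1.40 in the number-coded samples alone. Hoxd10 minus Hoxd4 was -2.11 to 1.83 (median 0.51) in carcinomas and -0.05 to 1.90 (median 0.83) in normal glands. Its mean differed by -0.66 ± 0.43.

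**Figure D4:**
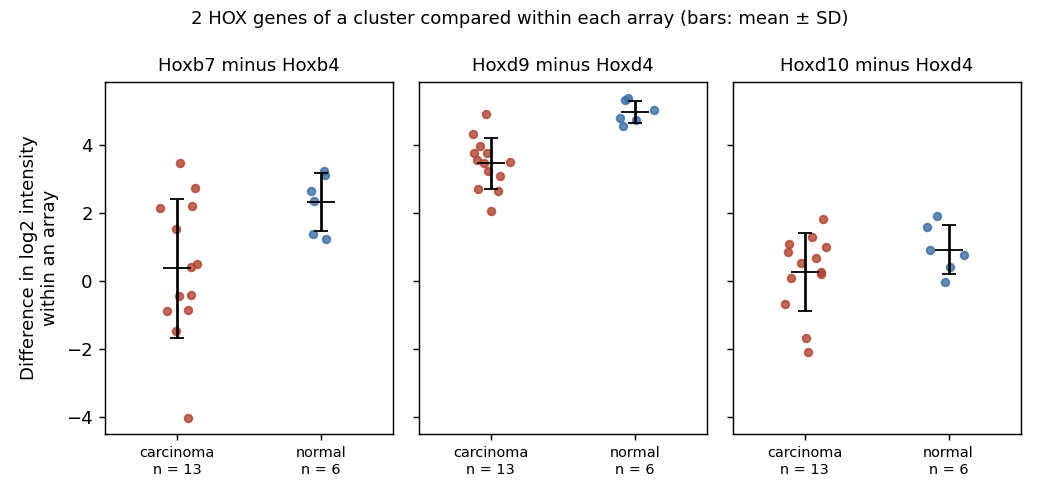
Difference in log2 intensity between the probes of 2 genes of 1 cluster on the same array (vertical axis), for Hoxb7 minus Hoxb4, Hoxd9 minus Hoxd4 and Hoxd10 minus Hoxd4; points are arrays, with 13 carcinomas left of 6 normal glands, and bars show mean and SD. In Hoxd9 minus Hoxd4 the carcinomas lie at 2.05 to 4.90 and the normal glands at 4.54 to 5.36, while the points of the groups overlap widely in the other pairs.

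The remaining central genes were dim and did not pass. Hoxa6, next to Hoxa7, was -8.80 to -4.52 (median -6.04) in carcinomas and -6.92 to -4.55 (median -5.32) in normal glands. Its difference was -0.81 ± 0.61 (adjusted p = 0.36), and it was well above background on 7 carcinoma arrays and 1 normal gland array. Hoxb8, next to Hoxb7, was -6.51 to -3.17 (median -4.70) in carcinomas and -6.65 to -4.20 (median -5.73) in normal glands, a difference of 0.61 ± 0.46 that did not pass. It was well above background on 11 carcinoma arrays and 1 normal gland array. Thus each of the falling paralogue 7 genes had a neighbour with a wide interval, -2.08 to 0.45 for Hoxa6 and -0.35 to 1.56 for Hoxb8.

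In cluster C, Hoxc4 was -7.69 to -4.58 (median -5.82) in carcinomas and -5.98 to -3.93 (median -4.72) in normal glands, with 5 of 13 carcinomas below all normal glands. Its difference of -1.04 ± 0.50, the largest among the genes that did not pass, had an adjusted p of 0.14, and it passed with slide as a block. It was well above background on 8 carcinoma arrays and 3 normal gland arrays. The probe of Hoxc5 with the higher mean was -6.75 to -4.98 (median -5.75) in carcinomas and -6.88 to -2.24 (median -4.87) in normal glands, where normal gland 1 alone was at -2.24. Its difference was -0.77 ± 0.48 (adjusted p = 0.26), while the second probe, not used for the gene, gave -0.09 ± 0.47. On this second probe carcinoma 13 was the highest at -3.77, and on the first it was the lowest at -6.75. The 2 probes of Hoxc5 therefore disagreed on which samples were high.

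Hoxc12, a posterior gene of cluster C, was -9.02 to -4.63 (median -6.55) in carcinomas and -7.15 to -5.67 (median -6.82) in normal glands, a difference of 0.01 ± 0.55 (adjusted p = 0.99). Hoxd13, which shapes digits and the genital tract, was -8.67 to -4.12 (median -6.09) in carcinomas and -7.08 to -5.57 (median -6.55) in normal glands, a difference of 0.08 ± 0.55 (adjusted p = 0.94). Hoxd12 was -7.38 to -5.03 (median -5.88) in carcinomas and -7.04 to -4.39 (median -6.66) in normal glands, a difference of 0.41 ± 0.40 that did not pass. On normal gland arrays Hoxd13 was not well above background, and Hoxc12 and Hoxd12 were on 1 each. With normexp these 3 differences were negative and passed, beside 41.1% of all genes tested that fell there, and so did those of Hoxb3 (-0.68) and Hoxb8 (-0.62).

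The letter-coded carcinomas lay below all number-coded ones in Hoxb3, Hoxb8 and Hoxc12, and within or partly within their range in the other 12 genes tested, as a comparison made after the values were seen. In Hoxb3 carcinomas 11, 12 and 13 were at -7.54 to -7.46 and 0 of 3 were well above background, against -5.65 to -3.83 and 9 of 10 in the number-coded carcinomas. For Hoxc12 they were at -9.02 to -7.83, against -7.25 to -4.63 in the number-coded ones. The same 3 carcinomas had Hoxd12 well above background on 3 of 3 arrays, at -5.63 to -5.22, and normal gland 6, also letter-coded, had the highest Hoxd12 of the normal glands. Carcinomas 4 and 6, both on slide 2, were the 2 highest in Hoxa6, Hoxb3, Hoxb8, Hoxc12, Hoxd1 and Hoxd13. Codes, slides and brightness moved together in these values, and their part was not tested.

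**Figure D5:**
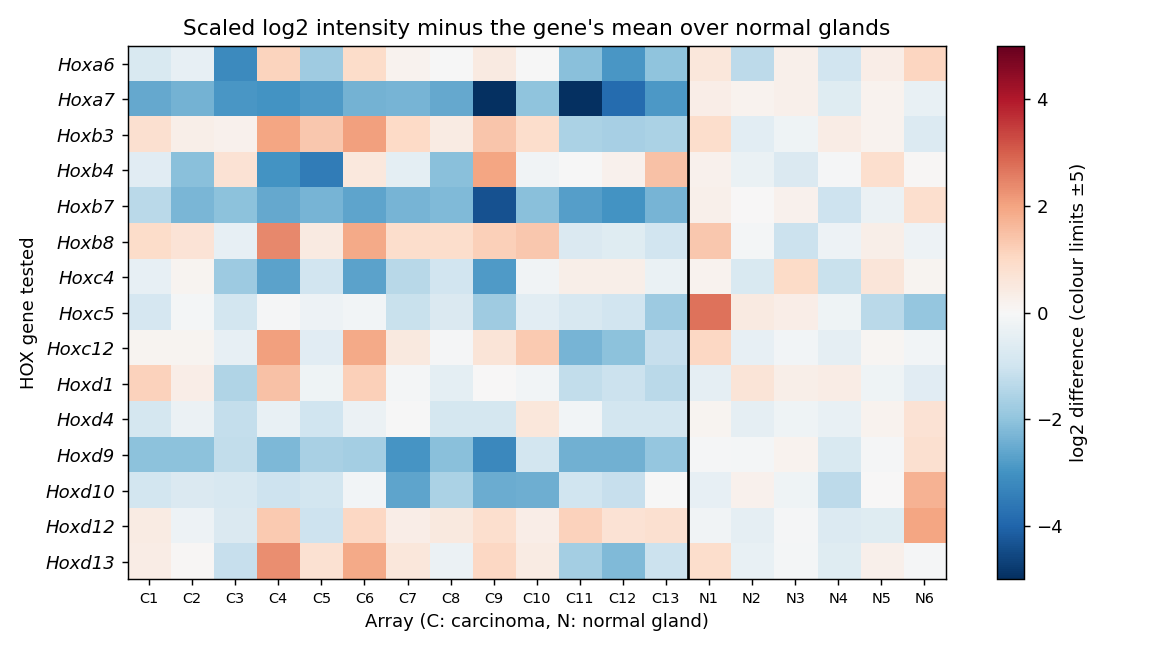
Scaled log2 intensity of the 15 tested HOX genes (rows) in 13 carcinomas (C1 to C13, left) and 6 normal glands (N1 to N6, right), minus the gene's mean over the normal glands; blue is lower and red higher, and values beyond the colour limits have the end colour. The rows of Hoxa7, Hoxb7 and Hoxd9 are blue in all 13 carcinomas, C11 to C13 are blue in Hoxb3 and Hoxc12, and C4 and C6 are red in Hoxb8 and Hoxd13.

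Across the 13 carcinomas, levels of the 6 genes detected in every normal gland were set against each other. Only the genes that fell, Hoxa7, Hoxb7, Hoxd9 and Hoxd10, were also set against marker lists. These lists were the adipocyte, luminal epithelial, fibroblast, endothelial and macrophage ones, which made 35 relations in all. None passed the Benjamini-Hochberg adjustment. The lowest p was for Hoxa7 with Hoxb7 (Pearson's r = 0.746, permutation p = 0.00447, adjusted 0.156; Spearman's rho = 0.632, permutation p = 0.023). Without the 2 carcinomas farthest from the median of Hoxa7, r was 0.506.

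Proteins that work with HOX factors or act on their clusters were counted from a list of 47 genes, of which 32 were tested. In carcinomas 11 rose and 3 fell. Of 7 TALE cofactors tested, which bind DNA beside HOX proteins, Meis3 fell (-1.31 ± 0.33, adjusted p = 0.0080) and no other passed, the Pbx genes and Meis1 lying between 0.14 and 0.67. Of 6 genes tested on the trithorax side, which keeps HOX genes active, 5 rose: the histone methyltransferase gene Dot1l (1.28 ± 0.24), the H3K27 demethylase gene Kdm6b (1.13), the chromatin tether gene Psip1 (1.05), and Wdr5 (0.52) and Ash2l (0.49), which encode subunits of the H3K4 methyltransferase complexes. Men1 was at -0.01. Over all genes tested 9.73% rose and 13.2% fell.

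Of 11 genes tested on the Polycomb side, which keeps HOX genes silent, 3 rose and 1 fell, beside 9.73% and 13.2% of all genes tested. Pcgf2 (1.22 ± 0.20, adjusted p = 3.1e-04), Phc1 (1.20) and Ezh2 (0.79), the H3K27 methyltransferase gene, rose, while Bmi1 (-0.80 ± 0.25), a close relative of Pcgf2, fell. The HOX inhibitor gene geminin, Gmnn (1.14), the retinoic acid receptor gene Rarg (0.77) and the insulator factor gene Ctcf (0.47) rose, and Cyp26b1 (-1.75 ± 0.59), whose enzyme breaks down retinoic acid, fell. With array brightness as a covariate no gene of the list passed, and 1.45% of all genes tested did.

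Genes next to the clusters were counted in the same way, from 18 listed and 13 tested. Tax1bp1 near cluster A (0.59 ± 0.13) and Cbx5 beside cluster C (0.72 ± 0.25) rose, and Atp5mc2 beside cluster C (-0.62 ± 0.18) fell. These 3 of 13 are near the share of all genes tested that passed, 23%. The other 10, among them Skap2 (-0.24) and Hibadh (0.17) beside cluster A and Mtx2 (0.07) and Lnpk (0.30) beside cluster D, did not pass. None of the genes tested beside clusters B and D passed.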

How the data were processed

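The authors deposited 1 scanner file per array. The submitters' processing notes name Agilent Feature Extraction, version 10.7.3.1. Per the file headers, the intensity column used is background-subtracted and detrended. The authors also deposited a log2 table set to 0 at each array's 75th percentile, used as an alternative. Control spots were removed (58717 spots and 30367 probes left), spots marked uneven or outlying were treated as missing, each array's 75th percentile was subtracted on the log2 scale, and spots were averaged per probe. No spot was saturated. Accessions matched 18005 probes to 15168 symbols. A gene was tested if a probe was well above background on at least 6 of 19 arrays, by its brightest such probe. The 2-sided test was limma 3.58.1 (R 4.3.3), group as the only term, variances following mean intensity, checked on simulated data. Its p-values weigh the group difference against the spread within groups, taking samples as independent, and the number of arrays limits their precision. HOX members, lists and named genes were chosen with earlier results of these data known. Named with full values were HOX genes past the threshold or without overlap, and of the others the 3 largest and 3 smallest differences and the 3 widest carcinoma ranges. From the lists, genes past the threshold were named. Within-array pairs and the values in unpassed list genes were chosen after values were seen. Correlations used 100000 permutations (numpy 2.4.6). The mean pixel signal was not used here, so normexp (offset 50) started from median signals. Alternatives covered background, scaling, filters, probes, slides, codes, brightness, replicate numbers and single samples. Values of 1 HOX gene are not reported here.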

Additional observations from a re-analysis of the deposited data

Results flagged for a closer look

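Among 16 group summaries checked for a sample far from the others, 2 stood out, and chance gives about 1 in 20. Normal gland 6 had a scaled Hoxd12 level of -4.39, while the other 5 normal glands lay between -7.04 and -6.42, a gap of 0.769 of the group's range. Normal gland 1 had 13 HOX genes well above background, against 6 to 8 in the other normal glands, a gap of 0.714 of the range. It also had the highest share of spots well above background among normal glands, 77.2%.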

How the results depend on the processing

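With 19 arrays, 6 of them normal glands, and many HOX probes near background, wide intervals limit the 11 genes that did not pass. The count of falling HOX genes was 3 to 4 without single samples, beside 8.5 to 14.3% of all genes. It was 14 with normexp, where the median of all genes moved to -0.37 and 5256 genes (41.1%) fell. It was 2 with array brightness as a covariate (all-gene median 0.12, 1.45% of all genes past the threshold), and 0 within slide 2. There 9 of 15 HOX genes had an unadjusted limma p under 0.05, beside 24.3% of all genes, and these went both ways. Hoxa7, Hoxb7, Hoxd9 and Hoxc4 were lower in carcinomas, and Hoxb3, Hoxb8, Hoxc12, Hoxd12 and Hoxd13 were higher. No HOX gene rose at the adjusted threshold in any setting run. Without the filter 6 fell, adding Hoxb9 and Hoxb13, seen on 0 and 1 arrays, beside 14.7% of all genes. With the positive-and-significant flag 11 HOX genes were detected on all carcinoma arrays, not 3, and no share over all genes is given beside this count. Partner genes past the threshold numbered 14, and 0 with brightness as a covariate and within slides 1 and 3, 1 within slide 2, and 9 to 14 without single samples (9 without normal gland 2 or 3). Neighbour genes numbered 3, and 7 with normexp, where 48.4% of all genes tested passed. They numbered 0 with brightness and within slides 1 and 2, and 1 to 3 without single samples (1 without normal gland 2 or 3). Over all genes tested 13.7 to 25.6% passed without single samples, 5.37% within slide 1 and 2.44% within slide 2.

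Deviations from the group means of samples with the same number correlated at -0.115 to 0.238. Samples of different numbers were not set beside these, so the values cannot settle whether the numbers mark a pairing. In the 6 numbered pairs, a replicate block gave 3 falling HOX genes, 8 partner and 1 neighbour genes. The same samples without the block gave 3, 9 and 1, a fit added after the data were seen. Over all genes tested 17.9% passed with the block (10.4% lower) and 20.2% without it (11.3% lower). Under the block Hoxd10 was -0.75 and did not pass.

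Signs turned only in genes that did not pass in the fit of all arrays. With normexp, where all 15 HOX differences were negative, Hoxb3 was -0.68, Hoxb8 -0.62 and Hoxd12 -0.78, and these 3 passed. Hoxb3 was -0.014 within slide 3, and Hoxd12 -0.18 within slide 1 and -1.27 within slide 3. Hoxc12 was -0.83 with normexp, -0.33 within slide 1, -0.72 within slide 3 and -0.16 to 0.21 without single samples. Hoxd13 was -0.80, -0.13, -0.91 and -0.11 to 0.27 in the same settings. Hoxd1 was 0.043 with slide as a block, 0.84 with brightness, 0.57 within slide 2, 0.053 in number-coded samples alone and 0.40 in the numbered pairs with and without the block. Hoxa6 was 1.12 with brightness and 0.96 within slide 2. Hoxc5 was 0.0014 within slide 2 and 0.98 within slide 3. The causes were not tested. With brightness as a covariate Hoxa7 (-2.45) and Hoxd10 (-2.37) did not pass, while Hoxb7 and Hoxd9 did.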
